A study of Rattus norvegicus with 8 samples.

Results

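Endothelial cells line the blood vessels of the fetal testis, and the genes described here are 10 that mark them: Plvap, Cldn5, Cdh5, Pecam1, Kdr, Flt1, Tek, Tie1, Eng and Vwf. Members were the probe sets that the platform's gene table gives to 1 of these symbols alone. For 9 of the 10 genes this found 12 probe sets, of 31042 tested on the array; Cdh5 had none and was not analysed here. The 9 genes are among 14217 genes with such a probe set. Testes came from Fischer 344 rat fetuses at gestational day 20. In the vehicle group (n = 4) dams had received corn oil at 1 ml/kg, and in the DBP group (n = 4) the dose was 50 mg/kg of dibutyl phthalate, a plasticizer that lowers androgen production by the fetal testis at high doses, in the same oil and volume. Both groups were dosed once a day by gavage from gestational day 12 to 20, with testes removed 6 h after the final dose. The comparison asks which testis transcripts differ between fetuses of exposed and of vehicle dams.

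Vessels of the developing testis carry oxygen and hormones to and from the interstitial Leydig cells, and they form under the control of VEGF ligands, which signal through Kdr and are trapped by Flt1. Angiopoietins acting on Tek, with its partner Tie1, stabilise the new vessels, and endoglin (Eng) tunes BMP signals in the same cells. Pecam1, Cdh5 and Cldn5 build the contacts between endothelial cells, Plvap forms the thin diaphragms of caveolae and fenestrae through which small vessels exchange solutes, and Vwf is the clotting protein stored by endothelial cells and platelets. In whole testis RNA, fewer endothelial cells and less RNA per endothelial cell cannot be told apart.

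All values are log2 signals, and a change is the DBP mean minus the vehicle mean on that scale. A gene passed when limma's moderated test gave a Benjamini-Hochberg adjusted p under 0.05 over all 31042 probe sets. Array medians lay between 6.08 and 6.13, and correlations between pairs of arrays lay between 0.991 and 0.998. The bacterial poly-A controls that are mixed into each RNA gave a weak mean log2 signal on DBP replicates 3 and 4, 4.84 and 4.79, against 6.46 to 7.17 on the other 6 arrays. Results are therefore also given for DBP replicates 1 and 2 and for DBP replicates 3 and 4. Of the 9 measured endothelial genes, 8 had a signal above that of the median probe set, Flt1 being the exception. Genes that mark the fetal testis were bright, such as Hsd3b1, a steroidogenic enzyme (12.48 in vehicle), and Amh, the Sertoli cell hormone (12.67). Whether each sample had its own dam or litter is not given in the labels. The p-values therefore cover only the spread among these 8 samples, which may be technical, and having 4 arrays per group limits the precision.

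One endothelial gene rose after DBP. Plvap passed, and the 8 others did not. Over the whole array 1.07% of probe sets and 1.22% of genes passed, 0.598% of genes in the upward direction, so 1 of 9 rests on a single gene and was not tested as a property of the group. The 9 genes did not shift together: 5 had a change above 0 (57.3% of all genes did) and 4 below it, with a median of 0.04, beside a median of 0.02 over all genes. An unadjusted p under 0.05 was seen for Plvap and Eng, both higher, which is 2 of 9, beside 19.1% of all genes.

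The log2 signal of Plvap was 7.43, 7.40, 7.49 and 7.38 in vehicle replicates 1 to 4. In DBP replicates 1 to 4 it was 7.66, 7.73, 7.78 and 7.97. All 4 DBP arrays lay above the highest vehicle array, a pattern seen for 7.31% of genes, and the groups did not overlap. The mean went from 7.43 ± 0.048 to 7.79 ± 0.13 (SD, n = 4 per group). This was a change of 0.36 ± 0.072 (SE), or 1.28-fold, with a 95% confidence interval of 0.20 to 0.52 and an adjusted p of 0.0471 in limma. By p, Plvap ranked 327 among the 31042 probe sets, of which 331 passed, and 3.33% of probe sets had a larger change in either direction. Plvap was thus close to the threshold.

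Both the size of the Plvap change and its call varied with the arrays used. Leaving out 1 array at a time gave changes of 0.30 to 0.40. The call was lost without any 1 of the vehicle arrays, with an adjusted p in limma of 0.142, 0.124, 0.125 and 0.142 without vehicle replicates 1 to 4, and without DBP replicate 3 (0.0999). DBP replicates 1 and 2 alone differed from vehicle by 0.27 (adjusted p = 0.0673 in limma). DBP replicates 3 and 4 alone, the arrays with low spike-in signal, differed by 0.45 (adjusted p = 0.0127), in a comparison where 12.8% of genes passed, against 1.67% for replicates 1 and 2. A model term for weak spike-in signal marks only DBP replicates 3 and 4, so its change is again that of replicates 1 and 2. It gave 0.27 with an adjusted p of 0.125 in limma and is no separate check of the change. With the RNA integrity number (8.6 to 8.8 over the arrays) as a covariate the change was 0.34 and the adjusted p 0.0856. Without limma's moderation the adjusted p was 0.131.

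**Figure D1:**
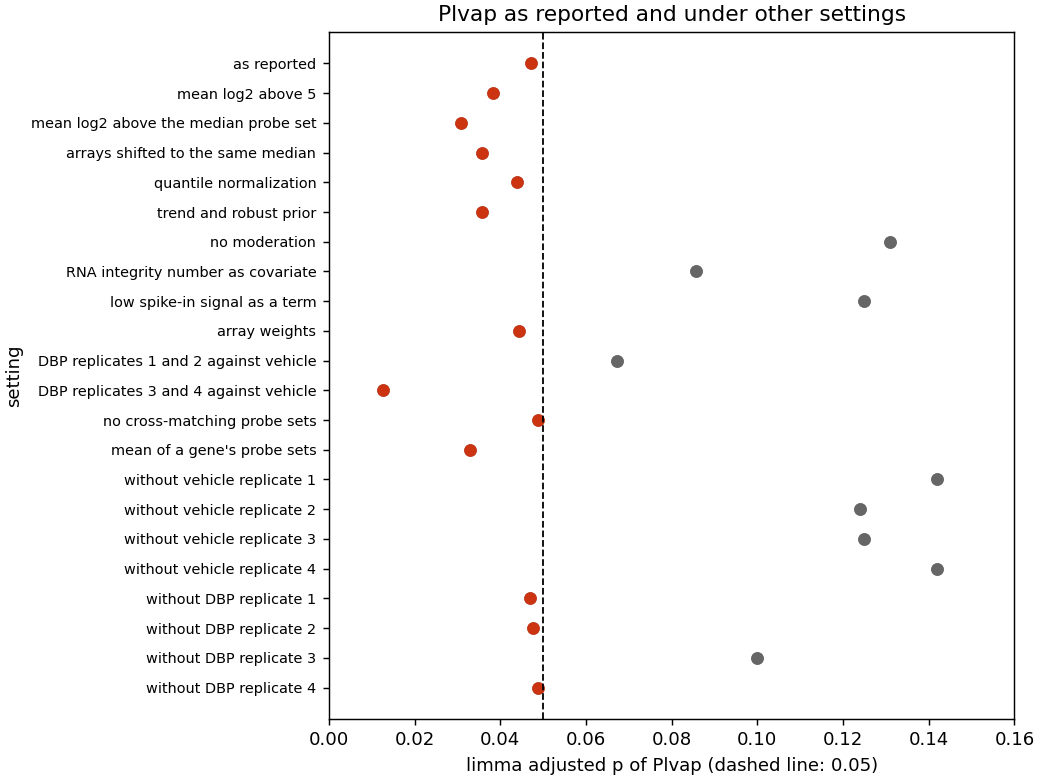
Adjusted p of Plvap in limma (x axis) as reported and under other settings (y axis); red points lie below the dashed line at 0.05. The values range from 0.0127 with DBP replicates 3 and 4 alone to 0.142 without vehicle replicate 1 or 4. The setting with the replicate number as a block (adjusted p = 0.0971 in limma) is not drawn.

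Set against the other endothelial genes of the same array, the Plvap signal was on average higher after DBP in each of 8 pairings. This had to follow, as Plvap had the largest change of the 9 genes. These differences describe a gene already chosen for its change and were given no test. Plvap minus Pecam1, a general endothelial adhesion gene, was 1.16, 1.05, 1.19 and 0.99 in vehicle and 1.25, 1.37, 1.37 and 1.67 in DBP replicates 1 to 4. The mean of that difference was 1.10 in vehicle and 1.42 in DBP, and its groups did not overlap. Without overlap were also the differences from Tek (shifted by 0.42), Tie1 (0.41) and Vwf (0.48), so 4 of 8 in all. The differences from Kdr (0.49), Cldn5 (0.28), Flt1 (0.28) and Eng (0.15) overlapped between the groups. The shift was smallest against Eng, the other member with a low unadjusted p.

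**Figure D2:**
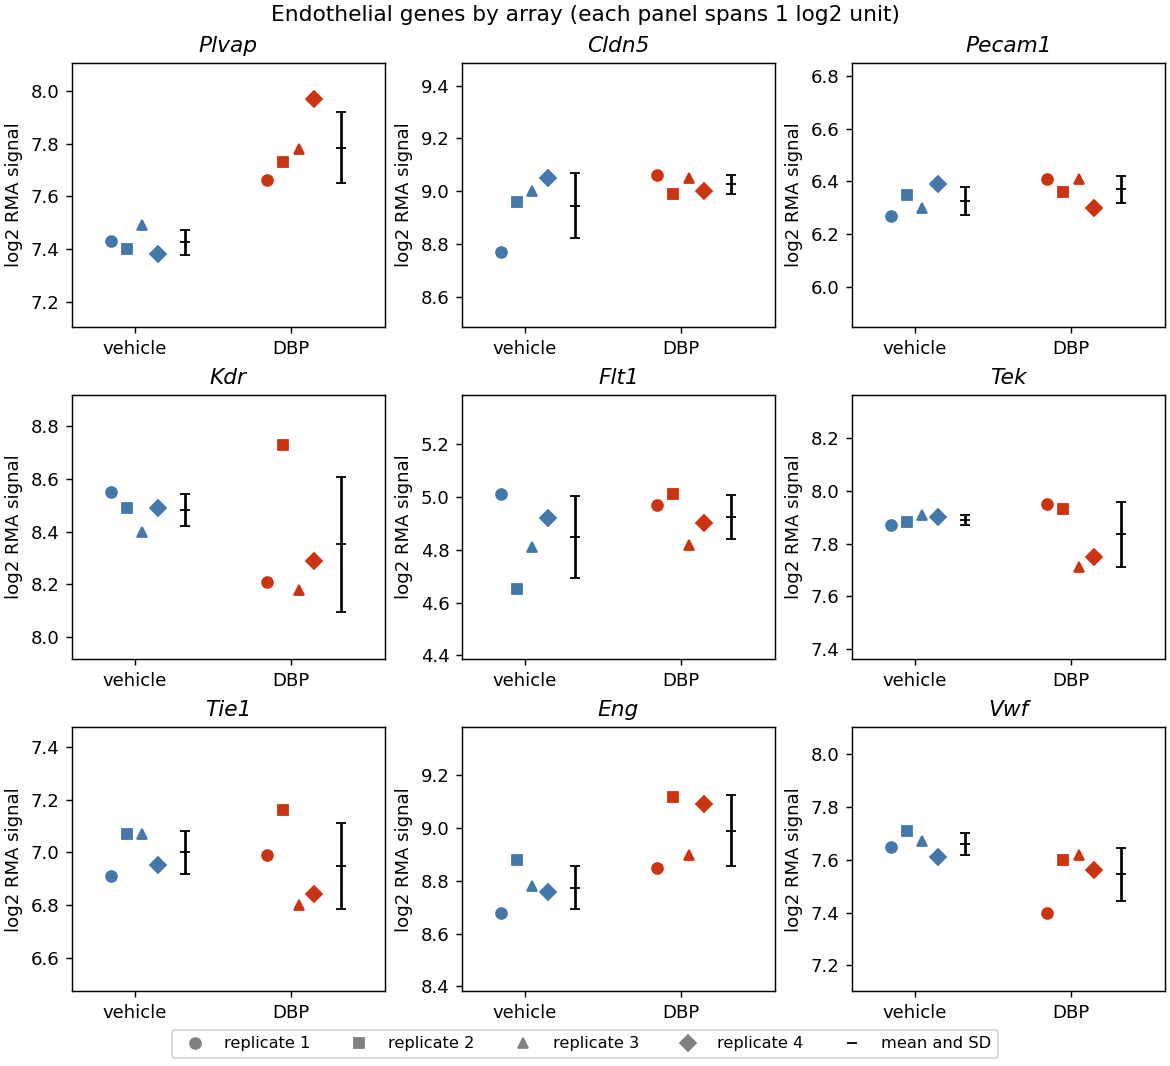
Log2 signal of the 9 measured endothelial genes on each array (y axis; every panel spans the same height), by group (x axis); symbols are replicates and black bars the mean and SD (n = 4 per group). Plvap is the one panel in which the groups do not overlap, from 7.38 to 7.49 in vehicle and 7.66 to 7.97 after DBP; for Tek, DBP replicates 3 and 4 lie below and DBP replicates 1 and 2 above all vehicle arrays.

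Eng encodes endoglin, the endothelial co-receptor that presents BMP and TGF beta ligands to the receptor Acvrl1. Its log2 signal was 8.68, 8.88, 8.78 and 8.76 in vehicle and 8.85, 9.12, 8.90 and 9.09 in DBP replicates 1 to 4. In 3 of the 4 DBP arrays it lay above every vehicle array, DBP replicate 1 being just below vehicle replicate 2. The change was 0.21 (95% confidence interval 0.04 to 0.39) with an adjusted p of 0.195 in limma, past no threshold. It was about the same in DBP replicates 1 and 2 (0.21) as in replicates 3 and 4 (0.22). Among the genes fixed as partners of endoglin in BMP and TGF beta signalling, 11 of 14 were measured, 0 passed in either direction, and 4 had an unadjusted p under 0.05 in limma. Of the 11, 10 had a change below 0 and 1 above it, with a list median of -0.09, where over all genes 57.3% lay above 0, the median was 0.02 and 19.1% had such a p. The list median was -0.03 with DBP replicates 1 and 2 and -0.15 with replicates 3 and 4, the arrays with low spike-in signal. Acvrl1 itself changed by -0.09 (adjusted p = 0.549), with 0.01 in replicates 1 and 2 and -0.18 in replicates 3 and 4. The type II receptor Bmpr2 had -0.70 ± 0.20 (SE; adjusted p = 0.129) on its brighter probe set and 0.17 (0.245) on the dimmer one, so its probe sets disagree in sign. The inhibitor Smad7 had -0.21 (adjusted p = 0.161), with -0.45 and 0.05 on its other probe sets, and the ligand Tgfb1 had 0.17 (0.253).

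The promoters of Plvap and Eng, the members with an unadjusted p under 0.05, are shown with that of Flt1, whose window holds the same number of matches to the core of ETS factors, a family that drives endothelial transcription. Each is the 250 bases before the RefSeq start of the gene (build GRCr8), 5′ to 3′ on the gene's strand, with matches to AGGAAG on either strand in capitals. The Plvap window is chr16:18231280-18231529 (minus strand), the Eng window chr3:36332029-36332278 (plus strand) and the Flt1 window chr12:12333180-12333429 (plus strand).
Plvap: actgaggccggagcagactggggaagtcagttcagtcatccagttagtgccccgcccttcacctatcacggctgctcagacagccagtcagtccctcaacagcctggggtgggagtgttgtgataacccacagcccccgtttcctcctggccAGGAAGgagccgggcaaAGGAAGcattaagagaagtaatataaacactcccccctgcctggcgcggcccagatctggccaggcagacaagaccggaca
Eng: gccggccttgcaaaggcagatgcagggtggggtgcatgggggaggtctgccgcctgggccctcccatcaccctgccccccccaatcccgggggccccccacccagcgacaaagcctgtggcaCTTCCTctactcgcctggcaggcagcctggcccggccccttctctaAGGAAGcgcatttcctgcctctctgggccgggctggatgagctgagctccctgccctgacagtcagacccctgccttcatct
Flt1: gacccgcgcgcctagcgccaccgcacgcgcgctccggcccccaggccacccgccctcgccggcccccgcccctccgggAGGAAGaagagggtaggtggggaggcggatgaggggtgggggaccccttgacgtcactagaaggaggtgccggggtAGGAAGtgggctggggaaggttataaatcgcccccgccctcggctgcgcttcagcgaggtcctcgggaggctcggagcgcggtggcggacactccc

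In the Plvap window both matches are on the gene's own strand, beginning 98 and 81 bases before the start, and in Flt1 they begin at 172 and 96 bases. In Eng the matches begin at 128 bases, on the opposite strand, and at 82 bases. RefSeq windows were at hand for 6 members (Plvap, Cldn5, Kdr, Flt1, Tie1 and Eng). A match to AGGAAG was found in 4 of them, the exceptions being Cldn5 and Kdr, while 29.5% of 33469 rat windows of this length hold at least 1 and 5.76% hold 2 or more. Searched on both strands as well were AGATAA for GATA factors (0 of 6; 10.3% of all windows), ACAAAG for SOX factors (2 of 6, Tie1 and Eng; 16.3%), TAAACA for FOX factors (2 of 6, Plvap and Kdr; 12.1%) and CCGCCC, the GC box (5 of 6, all but Eng; 30.5%). These matches describe letters in the windows.

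The VEGF receptors did not pass. Kdr, the receptor through which VEGF drives endothelial growth, read 8.55, 8.49, 8.40 and 8.49 in vehicle and 8.21, 8.73, 8.18 and 8.29 in DBP replicates 1 to 4. DBP replicates 1, 3 and 4 lay below every vehicle array and DBP replicate 2 above every one. The change was -0.13, with a 95% confidence interval of -0.38 to 0.12 (adjusted p = 0.544 in limma), and the SD was 0.26 in DBP against 0.062 in vehicle. Without DBP replicate 2 the Kdr change was -0.26 (adjusted p = 0.0676 in limma). It was -0.08 without DBP replicate 1 and -0.07 without DBP replicate 3, so its size depended on single arrays. The second Kdr probe set was dim, between 3.51 and 3.70 on all arrays, with a change of 0.04.

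Flt1, which binds VEGF with high affinity and limits its action, was measured by 3 dim probe sets. Its brightest read 5.01, 4.65, 4.81 and 4.92 in vehicle and 4.97, 5.01, 4.82 and 4.90 in DBP replicates 1 to 4, with every DBP value inside the vehicle range. The change was 0.08, with an interval of -0.11 to 0.26. The second probe set had a change of -0.15 (95% confidence interval -0.30 to -0.0036; adjusted p = 0.265 in limma), with 3 DBP arrays below all vehicle arrays. The third read 4.46 to 4.50 in vehicle and 4.39, 4.45, 4.38 and 4.12 in DBP replicates 1 to 4. Its groups did not overlap, which holds for 10.9% of probe sets, and its change was -0.14 (adjusted p = 0.333). The probe sets of Flt1 therefore differ in sign, and none passed.

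The ligands and co-receptors of this pathway gave 0 passing of 8 measured, with a list median of -0.05. Of the 8, 1 had an unadjusted p under 0.05 in limma (19.1% of all genes). That gene was Vegfa, the ligand of Kdr and Flt1. Vegfa read 8.38, 8.37, 8.30 and 8.31 in vehicle and 8.03, 8.0, 7.87 and 8.16 in DBP replicates 1 to 4. All DBP arrays were below all vehicle arrays, which holds for 5.56% of genes. The change of -0.32 ± 0.068 (SE) just missed the threshold (adjusted p = 0.0562 in limma), and the dimmer Vegfa probe set had -0.28 (0.297). The change was -0.32 in each pair of DBP arrays, and it passed with either pair alone against vehicle (adjusted p = 0.033 with replicates 1 and 2, 0.0437 with replicates 3 and 4) and without DBP replicate 4 (0.0249). Of all genes 1.67% passed with replicates 1 and 2 and 12.8% with replicates 3 and 4. Both comparisons used the same vehicle arrays. Over all alternatives its adjusted p lay between 0.0249 and 0.169, the highest without vehicle replicate 1. Vegfd, a ligand of lymphatic and blood vessels, had -0.26 (adjusted p = 0.285), nearly all of it from DBP replicates 3 and 4 (-0.49, against -0.02 in replicates 1 and 2), and the co-receptor Nrp1 had -0.19 (0.293). Of 12 hypoxia response genes, which share their regulators with Vegfa, 0 passed on their brightest probe set. In limma 2 of the 12 had an unadjusted p under 0.05, beside 19.1% of all genes. Both were higher: Car9, a carbonic anhydrase (0.23, adjusted p = 0.0985), and Egln1, an oxygen-sensing prolyl hydroxylase (0.18, 0.186). Egln3, of the same family, had 0.18 (0.311). Pfkfb3, an enzyme that drives glycolysis, rose by 0.31 on a dim probe set (adjusted p = 0.0298 in limma, groups without overlap), while its brighter probe sets gave 0.01 (0.942) and -0.14 (0.372).

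The angiopoietin receptors split between the pairs of DBP arrays. Tek, the receptor of angiopoietins, read 7.87, 7.88, 7.91 and 7.90 in vehicle, a narrow range, and 7.95, 7.93, 7.71 and 7.75 in DBP replicates 1 to 4. DBP replicates 1 and 2 were above and replicates 3 and 4 below every vehicle array. The overall change was -0.06 (95% confidence interval -0.21 to 0.09; adjusted p = 0.681 in limma), made of 0.05 in the first pair and -0.16 in the second. Tie1, the orphan partner of Tek, read 6.91, 7.07, 7.07 and 6.95 in vehicle and 6.99, 7.16, 6.80 and 6.84 in DBP replicates 1 to 4. Here too DBP replicates 3 and 4 were below every vehicle array, while DBP replicate 2 alone was above. Its change was -0.05 (-0.24 to 0.14; adjusted p = 0.762), with 0.08 in replicates 1 and 2 and -0.18 in replicates 3 and 4. Tek minus Tie1 lay between 0.77 and 0.96 over the 8 arrays, with a mean of 0.89 in both groups. The split follows the spike-in signal; the part of that signal in it was not tested. Of 4 measured angiopoietins and Tie regulators (Angpt1, Angpt2 and Ptprb among them), 0 passed and 0 had an unadjusted p under 0.05 in limma. Angpt2, the ligand that loosens vessels, had 0.12 (adjusted p = 0.602), Angpt1, the stabilising ligand, -0.11 (0.747) and Ptprb, the endothelial phosphatase that acts on Tek, 0.10 (0.384).

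The endothelial genes of cell contacts did not pass, and their intervals were narrow. Cldn5, the claudin of endothelial tight junctions, read 8.77, 8.96, 9.0 and 9.05 in vehicle and 9.06, 8.99, 9.05 and 9.0 in DBP replicates 1 to 4. The groups overlapped, with vehicle replicate 1 lowest, and the change was 0.08 (95% confidence interval -0.07 to 0.23; adjusted p = 0.545 in limma). Pecam1 read 6.27, 6.35, 6.30 and 6.39 in vehicle and 6.41, 6.36, 6.41 and 6.30 in DBP replicates 1 to 4. Its groups overlapped, and its change of 0.04 had an interval of -0.08 to 0.17 (adjusted p = 0.704). For both genes a change as large as that of Plvap (0.36) lies outside the interval.

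Among 17 measured genes of endothelial junctions and adhesion, 1 passed, lower after DBP, and 0 passed higher, where 1.22% of all genes passed. Of the 17, 4 had an unadjusted p under 0.05 in limma, beside 19.1% of all genes. Gja1, the gap junction protein connexin, which Leydig and Sertoli cells make as well, fell by 0.39 on the log2 scale (95% confidence interval -0.53 to -0.24; adjusted p = 0.026 in limma). It read 11.15, 11.22, 11.25 and 11.26 in vehicle and 10.83, 10.99, 10.74 and 10.78 in DBP replicates 1 to 4, without overlap. Its dimmer probe sets gave -0.27 (adjusted p = 0.399) and 0.03 (0.843), and the mean of its probe sets -0.21 (0.184). The Gja1 call was lost without any 1 vehicle array (adjusted p of 0.067, 0.0813, 0.114 and 0.0977 without replicates 1 to 4), without DBP replicate 1 (0.0606) or 3 (0.0629) and with DBP replicates 1 and 2 alone (0.0625). It was also lost with the replicate block (0.0677) and without moderation of the variance (0.102). The spike-in term, which repeats the change of DBP replicates 1 and 2, lost it too (-0.31, 0.0682). F11r, a junctional adhesion molecule, had 0.23 (adjusted p = 0.156) and Vcam1, an adhesion molecule for leukocytes, -0.28 (0.208).

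Vwf, the clotting protein, read 7.65, 7.71, 7.67 and 7.61 in vehicle and 7.40, 7.60, 7.62 and 7.56 in DBP replicates 1 to 4. In 3 of the 4 DBP arrays it was below every vehicle array, DBP replicate 1 being lowest. The change was -0.12, with an interval of -0.26 to 0.03 (adjusted p = 0.36 in limma). Its direction was opposite to that of Plvap and Eng. The platelet and megakaryocyte list, cells that also hold Vwf, had 5 of 6 measured genes with a change above 0 (57.3% of all genes). Of the 6, 0 passed in limma and 3 had an unadjusted p under 0.05 (19.1% of all genes).

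**Figure D3:**
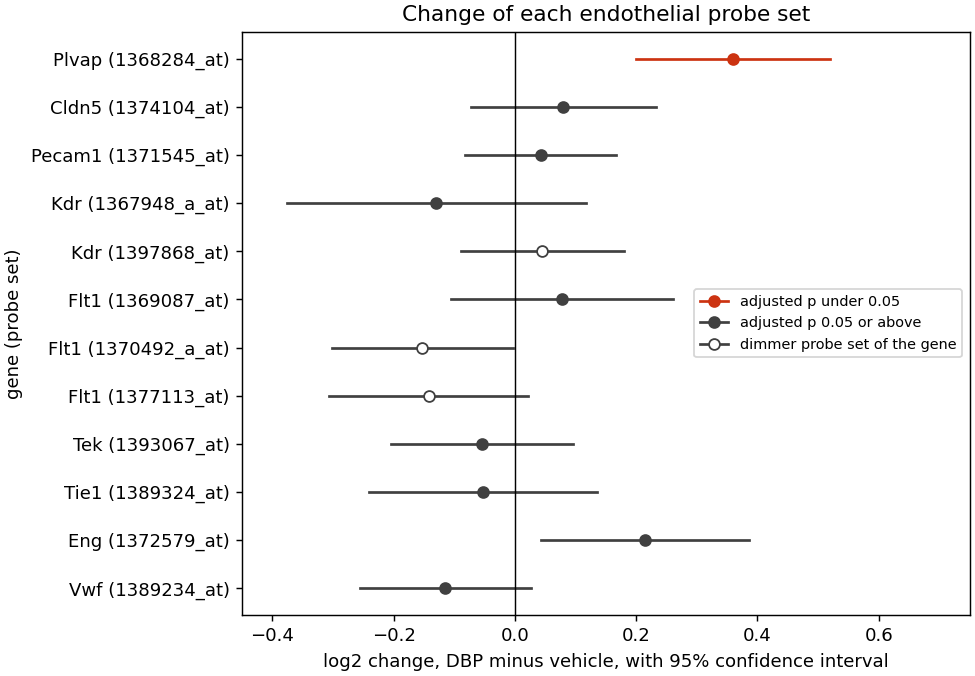
Change in log2 signal after DBP (x axis) with its 95% confidence interval for the 12 endothelial probe sets (y axis); open circles are dimmer probe sets of a gene already shown. Plvap (0.36) is the one probe set that passed; Eng (0.21) and the second probe set of Flt1 (-0.15) have intervals that leave out 0 without passing.

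In the remaining endothelial lists few genes stood out. Of 10 genes of caveolae, fenestrae and lipid transfer, the structures that carry Plvap, 0 passed and 1 had an unadjusted p under 0.05 in limma: Fabp4, a fatty acid carrier of capillaries (0.44, adjusted p = 0.143). Cav1, the coat protein of caveolae, had 0.11 on its brightest probe set (adjusted p = 0.426), with 0.02 and -0.07 on its other probe sets, and the water channel Aqp1 had -0.06 (0.586). Of 18 endothelial transcription factors 0 passed in limma and 4 had an unadjusted p under 0.05. Sox18, a factor of vessel growth, was nearest, with -0.29 (adjusted p = 0.0625), and Lmo2 had 0.16 (0.192) and Mef2c 0.20 (0.226), with 0.27 (0.0795) and no overlap between groups on its dimmer probe set. Of 8 Notch genes 0 passed in limma and 2 had an unadjusted p under 0.05. Notch1 had -0.39 (adjusted p = 0.114) and -0.34 (0.0666) on its probe sets, Hey2, a target of Notch in arteries, 0.30 (0.167) and the ligand Dll4 -0.12 (0.323). Of 16 other endothelial genes 0 passed in limma, while before adjustment 5 lay under 0.05. They include S1pr1, the sphingosine phosphate receptor (-0.25, adjusted p = 0.0625, against 0.18 on its dim probe set), the ligand Apln (-0.35, 0.0732, against -0.05 on its dimmer probe set) and the vasoconstrictor Edn1 (0.41, 0.111). In all, the 8 pathway lists held 92 measured genes, of which 1 passed lower and 0 higher (1.09%, beside 1.22% of all genes). Before adjustment 22.8% had a limma p under 0.05, 10 higher and 11 lower, beside 19.1% of all genes.

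Markers of cells that neighbour or fill the vessels were read from the same fit. The mean log2 signal of 9 erythroid genes was 7.64 to 8.0 in vehicle, 8.40 and 8.28 in DBP replicates 1 and 2, and 7.77 and 7.73 in replicates 3 and 4, with all 9 changes above 0 (57.3% of all genes), 0 passing and 2 at an unadjusted p under 0.05 in limma (19.1% of all genes). With DBP replicates 1 and 2 alone 4 of the 9 passed, beside 1.67% of all genes, and with replicates 3 and 4 alone 0 did. The 4 were Slc4a1, the anion exchanger of red cells (1.26, adjusted p = 0.0108), Alas2, the heme synthesis enzyme (0.70, 0.0315), Hemgn (0.63, 0.0294) and Klf1 (0.53, 0.0483). The same 4 passed with the spike-in term, which repeats the changes of DBP replicates 1 and 2. In replicates 3 and 4 Slc4a1 had -0.35 (0.143) and Alas2 -0.15 (0.421). Over all arrays Slc4a1 had 0.45 (adjusted p = 0.53 in limma), Hba-a3, a globin, 0.28 (0.109), Klf1, a red cell transcription factor, 0.31 (0.258) and Hemgn 0.32 (0.334). The mean over 6 platelet genes was 5.41 to 5.50 in vehicle and 5.54 to 5.65 after DBP, with 5 of 6 changes above 0. Pf4, a platelet chemokine, had 0.33 (adjusted p = 0.221), Ppbp 0.24 (0.168) and Gp5 0.21 (0.166), the last 2 at dim signals below 4 on average. For 14 macrophage genes the mean was 6.49 to 6.65 in vehicle and 6.58 to 6.75 after DBP, with 13 changes above 0 (57.3% of all genes), 0 passing in limma and 3 at an unadjusted p under 0.05 (19.1% of all genes). Fcer1g, an immune receptor chain, had 0.27 (0.0835), Aif1 0.26 (0.155) and Cd74 0.24 (0.115). For 11 mural cell genes, of the pericytes and smooth muscle around vessels, the mean was 8.30 to 8.41 in vehicle and 8.36 to 8.55 after DBP, with 0 passing in limma and 4 at an unadjusted p under 0.05 (19.1% of all genes). Notch3 had 0.30 (0.182), Acta2 0.22 (0.235) and Cspg4 -0.18 (0.195). Of 4 lymphatic endothelial markers 0 passed in limma and 1 had an unadjusted p under 0.05, Ccl21 with 0.69 (0.111); without DBP replicate 4 it was 0.86 with an adjusted p of 0.0336. The others named were Prox1 with 0.13 (0.407) and Pdpn with 0.07 (0.617). The part of these cell types in the Plvap change was not tested.

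The testis itself was represented by 9 markers, of which 0 passed and 3 had an unadjusted p under 0.05 in limma, beside 19.1% of all genes. These were the Leydig cell genes Insl3 (-0.34, adjusted p = 0.0732 in limma), Lhcgr (-0.21, 0.17; -0.49 and 0.274 on its dimmer probe set) and Hsd3b1 (0.17, 0.163). Of 6 adrenal markers 1 passed, beside 1.22% of all genes. In limma 4 of the 6 had an unadjusted p under 0.05 (19.1% of all genes), 2 higher and 2 lower. The 1 that passed was Mrap, a partner of melanocortin receptors, which fell (-0.61, 0.029), while Th had 0.27 (0.115) and Chga -0.34 (0.21). The Mrap call was lost without vehicle replicates 1 to 4 in turn (0.0958, 0.085, 0.116 and 0.0619) or DBP replicate 1 (0.0671). It was also lost without moderation (0.144) or with the spike-in term (0.0612). That term repeats the Mrap change of DBP replicates 1 and 2, which alone passed against vehicle (-0.61, adjusted p = 0.00619 in limma).

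**Figure D4:**
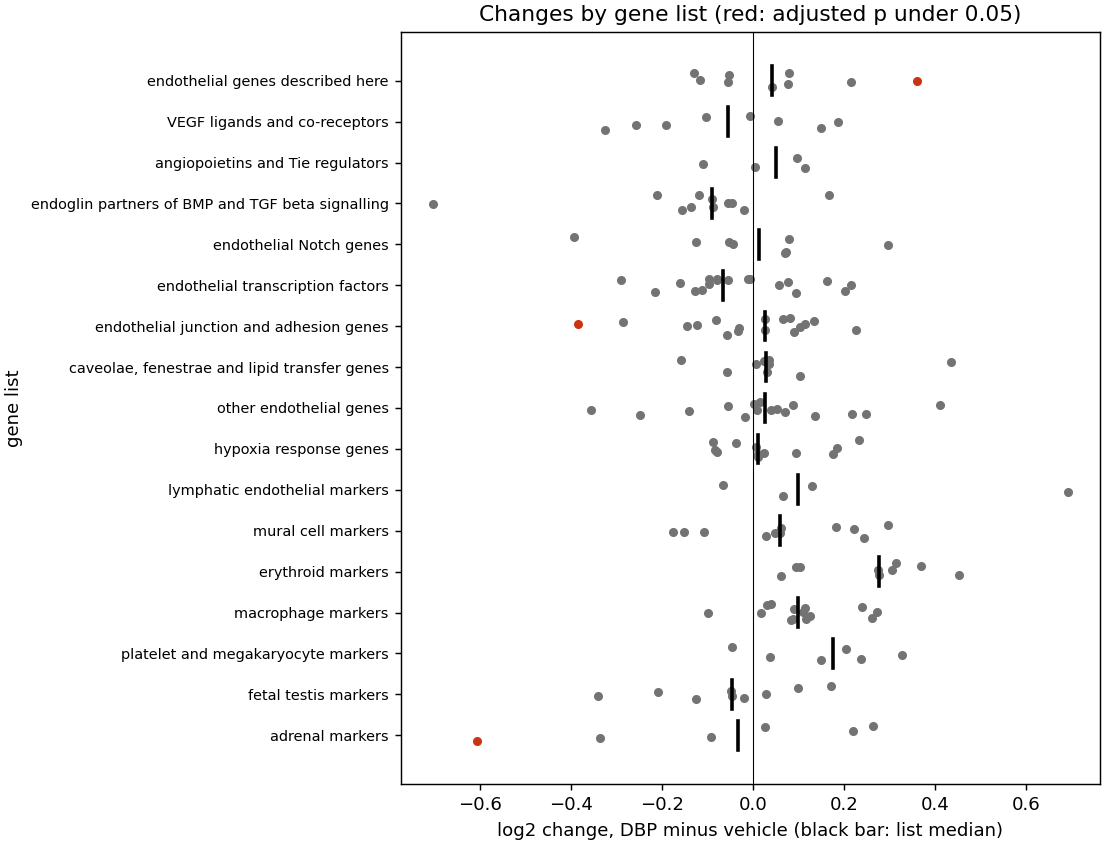
Change in log2 signal after DBP (x axis) of each measured gene, by list (y axis); black bars are list medians and red points passed limma's test. The endothelial genes have a median of 0.04 with Plvap at 0.36 as their one red point; the other red points are Gja1 and Mrap, both lower.

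Array by array, the endothelial genes had no common level. The mean deviation of the 9 genes from their vehicle means was 0.02, 0.14, -0.01 and 0.04 in DBP replicates 1 to 4, against -0.02 to 0.01 in vehicle. DBP replicate 2 was highest, with 8 of 9 genes above their vehicle mean. In DBP replicates 1, 3 and 4, Plvap was the member farthest above its vehicle mean and Kdr the one farthest below. The SD was larger in DBP than in vehicle for 6 of the 9 genes, beside 79.9% of all genes.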

How the data were processed

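RNA of 8 fetal rat testis samples, 4 per group, had been hybridised to Affymetrix arrays, 1 array per sample. The deposited values are log2 signals per probe set from RMA, a step the authors ran, per the submitters' processing notes; its version and settings are not given in the sources used here. RMA brings arrays to a common distribution, so a shift of all genes cannot be seen, and deposited values carry 2 decimals. Of 31099 probe sets, 57 Affymetrix controls were set aside. Symbols came from the platform's gene table: 20826 tested probe sets had 1 symbol, 436 several and 9780 none. The brightest probe set over all arrays represents a gene, and other probe sets are given for the endothelial genes and for some of the listed genes.

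Groups were taken from sample titles and compared with limma 3.58.1 (R 4.3.3; plain empirical Bayes prior, 2-sided), adjusting by Benjamini-Hochberg over 31042 probe sets, with a threshold of 0.05 and 95% confidence intervals. The fit was tested on simulated data. The members, lists, motifs and alternatives were chosen with earlier results of these data known. Named were all members and, from each list, genes that passed, filled up to 3 by the smallest unadjusted p. The choice of Acvrl1, Amh, Pfkfb3, Slc4a1, Alas2 and Lyve1 was made once their values were known. Alternatives were filters on dim probe sets, scaling, the variance prior, covariates, array weights, subsets of arrays and of probe sets. Tables and figures used Python 3.11.15, pandas 2.3.3 and matplotlib 3.10.9. Promoter windows are RefSeq's, build GRCr8.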

Additional observations from a re-analysis of the deposited data

Results flagged for a closer look

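None of the endothelial probe sets described above held an array that stood far from the others of its group by Dixon's criterion. The criterion was applied to 120 groups in all, which also cover the brightest probe set of each of the 48 genes named from the lists. There it marked 3 arrays, where chance marks about 1 in 20 groups. Dimmer probe sets of listed genes were not covered. S1pr1 read 9.29 on vehicle replicate 2 and 9.20 on each of the other vehicle arrays, and 9.03 on DBP replicate 4 against 8.95 to 8.96 on the other DBP arrays. Lmo2 read 7.85 on vehicle replicate 4 and 7.83 on each of the other vehicle arrays. Values carry 2 decimals, and where the other arrays of a group tie, the criterion marks any gap, however small. Both vehicle arrays marked here are of this kind.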

How the results depend on the processing

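Plvap was the 1 endothelial gene that passed. The count fell to 0 without moderation, with the replicate number as a block and with the RNA integrity number as covariate. It also fell to 0 with DBP replicates 1 and 2 alone, and with the term for weak spike-in signal, which repeats their change. Leaving out 1 array gave 0 to 1. The Plvap change lay between 0.27 and 0.45 under the 22 alternatives, with an adjusted p in limma of 0.0127 to 0.142. Its sign stayed the same, which is no check of the change. Every DBP array lay above every vehicle array, so no subset of arrays could turn the sign. Filters, the variance prior and the block left the change at 0.36. The other 8 genes passed under none of them, and Kdr, Flt1, Tek and Tie1 changed sign in 7 fits without a call. For Kdr the fit used its dim probe set in place of the bright one, and for Flt1 the mean of its probe sets. Tek and Tie1 changed sign with DBP replicates 1 and 2 alone and with the spike-in term, which repeats that change. Tie1 also did so with the RNA integrity number. Over all probe sets 331 passed; 74 did without moderation, 175 with the replicate block, 577 with DBP replicates 1 and 2 alone, 4129 with DBP replicates 3 and 4 alone, and 82 to 606 without 1 array. Same-numbered arrays deviated from their group means with correlations of 0.11, -0.08, 0.10 and -0.02. For vehicle replicates 1 and 3 the same-numbered DBP array correlated best, and for 2 and 4 it did not. These values cannot settle whether the numbers pair the samples, and the labels do not say what the numbers mark. With the block Plvap had an adjusted p of 0.0971 in limma. With arrays shifted to the same median the split of higher to lower calls was 158 to 159, against 130 to 201. Of 48 genes named from the lists, 18 that had not passed did so under at least 1 alternative: Vegfa under 7, Insl3 under 6, S1pr1 under 5, Sox18 under 4 and 14 others under 1 or 2. These genes were picked from their lists by smallest p, so the count does not describe genes at large. Under 1 of the alternatives, DBP replicates 3 and 4 alone, 12.8% of all genes passed. Flt1 and the second Kdr probe set were dim, which limits what they can show.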
